A study of Mus musculus with 5 samples.

Results

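The genes described here are 41 genes of the endoplasmic reticulum (ER), the compartment in which proteins bound for the cell surface, for secretion or for lysosomes are made and folded. They encode the channel through which a growing protein enters the ER, the chaperones and disulfide isomerases that fold it, the machinery that withdraws and destroys misfolded chains, and the sensors and transcription factors of the unfolded protein response (UPR), which raises all of these when folding falls behind. The genes were picked by symbol from a table of 26531 RefSeq transcripts of 22098 gene symbols, taking for each symbol the transcript with the highest mean. All 41 of 41 were in the table.

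The libraries came from Hardy fraction A cells of C57BL/6 mice aged 6 to 7 weeks. Hardy fraction A is an early stage of B cell development in bone marrow, and here it was sorted without removing cells of other lineages. The dF4 group is 1 library from mice with the genotype Ikaros_ZnF4-/-, which lack a working zinc finger 4 of the transcription factor Ikaros, and the design text says that its coverage was low. The dF1 group is 2 libraries with the genotype Ikaros_ZnF1-/-, called biological replicates in the design text, and the wt group is 2 wild-type libraries. The labels do not say how many mice went into a library, nor whether different mice gave the wt libraries. The p-values therefore cover only the spread between these libraries, which may be technical.

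Values are RPKM, that is reads scaled by transcript length and library size, so levels of different genes can be compared. Summed over the table they came to 345446 RPKM in dF4, 298855 and 307910 in dF1, and 306100 and 286080 in wt. The spacing of the low values put the dF4 library at about 597000 reads. The spacing gave no such estimate in dF1 or wt, whose depth is unknown. Intervals given for dF4 are exact 95% Poisson intervals on the reads estimated this way and cover counting error only.

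Markers of several cell types were present in the sort, and their levels differed in the dF4 library. The labels call the cells proB cells. Early B lineage markers were present, with a summed level over 21 genes of 2094 RPKM in dF4, 1177 and 1164 in dF1, and 1420 and 1007 in wt. They did not move as 1 in dF4. There 13 of the 21 lay above both wt libraries and 5 below both, where 44.7% and 42.3% of all transcripts did, and Vpreb2 was listed at 0. Plasmacytoid dendritic cell (pDC) markers were higher in dF1 and wt than the B lineage markers, with sums over 21 genes of 1061 RPKM in dF4, 6105 and 6484 in dF1, and 6630 and 7522 in wt. In dF4, 19 of these 21 lay below both wt libraries, where 42.3% of all transcripts did, and Klk1, Cox6a2 and Cd300c were listed at 0. Neutrophil markers (20 genes) summed to 34925 RPKM in dF4, which is 10.1% of that library, against 232 and 895 in dF1 and 430 and 1128 in wt, and 20 of 20 lay above both wt libraries in dF4, where 44.7% of all transcripts did. Plasma cell markers (13 genes) summed to 1027 RPKM in dF4, 337 and 288.5 in dF1, and 527.5 and 333 in wt, with Tnfrsf17 listed at 0 in dF4 and in dF1 replicate 1. NK cell markers (15 genes, none at 0) summed to 1234 RPKM in dF4, 3218 and 2851 in dF1, and 2652 and 1277 in wt. Erythroid markers (14 genes, none at 0) summed to 1101 RPKM in dF4, and to between 139 and 226 in the other libraries. Stromal markers (10 genes) summed to 123 RPKM in dF4, where none was at 0, and to between 3.4 and 16.1 in the other libraries, where 2 to 4 were at 0, among them Col3a1 in each. The part of these shifts in the differences below was not tested, and in such bulk libraries fewer cells of a type and less RNA per cell cannot be told apart.

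The ER genes were among the more abundant transcripts of fraction A. By their mean wt level, 40 of the 41 were in the upper 50% of all gene symbols, 27 were at or above the 90th percentile and 8 at or above the 99th. Together, counting all of their transcripts, they made up 0.929% of the summed RPKM in dF4, 1.30% and 1.10% in dF1, and 1.36% and 1.26% in wt. pDCs and plasma cells are both known for an extensive ER, and Xbp1 is needed for the secretory apparatus of plasma cells and for normal numbers of pDCs in mice.

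By the mean over the 5 libraries the most abundant member was Hsp90b1, the ER form of the chaperone Hsp90 (GRP94), at 407.7 RPKM in dF4, 528.2 and 436.5 in dF1, and 573.3 and 485.8 in wt. The dF4 value was the lowest, and the dF1 and wt ranges overlapped. Hspa5, which encodes the ER Hsp70 chaperone BiP, followed at 263.3 RPKM in dF4, 329.6 and 310.8 in dF1, and 357.8 and 263.1 in wt. Its dF4 value lay inside the wt range, with dF1 between the wt libraries. Calr, a lectin chaperone that holds newly made glycoproteins, was at 270.6 RPKM in dF4, 313.8 and 259.7 in dF1, and 348.4 and 313.9 in wt. Here the dF1 libraries lay just below both wt libraries. Its membrane-bound partner Canx averaged 143 RPKM in wt.

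**Figure D1:**
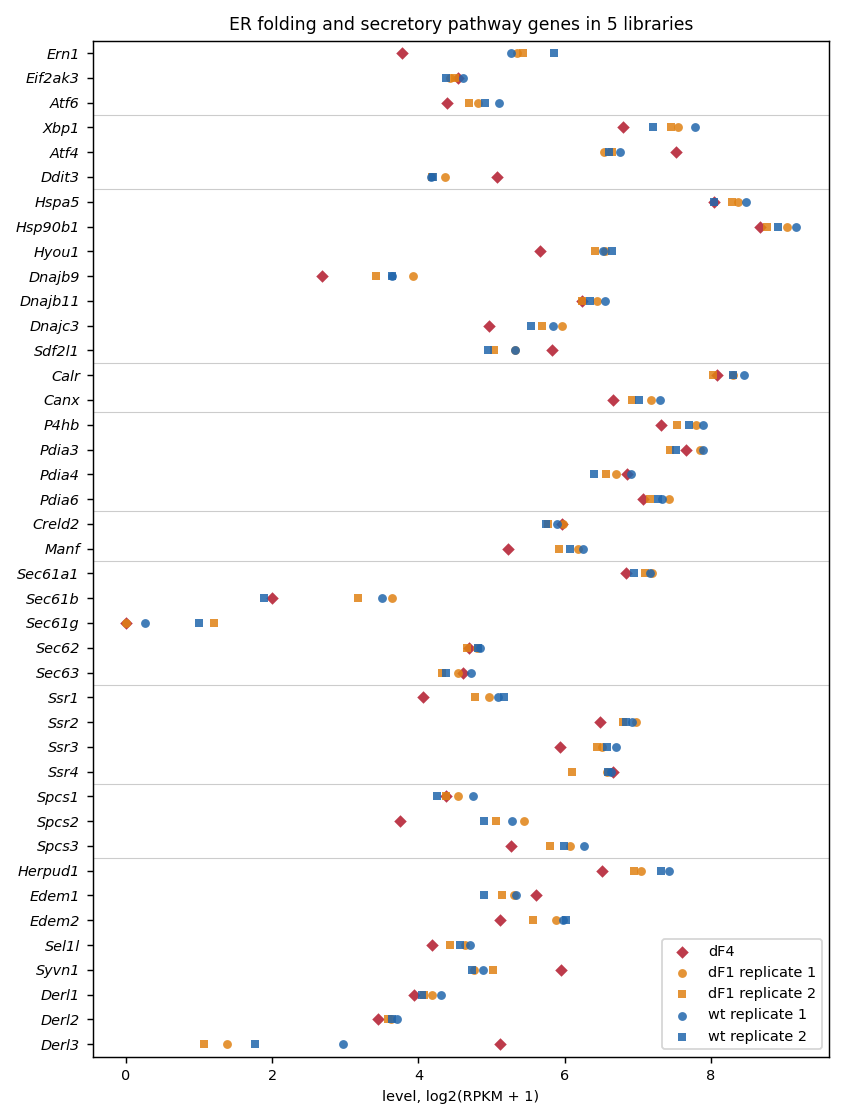
Level of each of the 41 genes as log2(RPKM + 1), grouped by role from the stress sensors at the top to ER-associated degradation at the bottom, with 1 point per library (diamond for dF4, circles for replicate 1 and squares for replicate 2). Most genes have their 5 points within a narrow span. The widest exceptions include Derl3 and Syvn1, where dF4 stands to the right, and Ern1, Spcs2 and Ssr1, where it stands to the left.

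Levels varied widely within most roles. The 4 protein disulfide isomerases, which form and reshuffle disulfide bonds, averaged between 101.5 RPKM (Pdia4) and 221.8 RPKM (P4hb) in wt. The 3 stress sensors were lower, between 21.6 RPKM (Eif2ak3) and 47.2 RPKM (Ern1). Of the chaperones and co-chaperones, Dnajb9, a BiP co-chaperone, was the lowest at 11.5 RPKM in wt. Of the degradation genes, Herpud1, a membrane protein that organizes the degradation complex, was the highest at 165 RPKM in wt, and the derlins, membrane proteins of the export channel, were the lowest, at 17.2 RPKM for Derl1, 11.8 for Derl2 and 4.6 for Derl3.

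The subunits of the Sec61 channel did not have like values. Sec61a1, which encodes the pore subunit, was at 113.8 RPKM in dF4, 145.5 and 136.9 in dF1, and 142.5 and 123.1 in wt. Sec61b, which encodes a small subunit of the same complex, was at 3 RPKM in dF4, 11.5 and 8 in dF1, and 10.3 and 2.7 in wt. Sec61g, the other small subunit, was listed at 0 in dF4, at 0 and 1.3 in dF1, and at 0.2 and 1 in wt, and was the only member with a mean under 1 RPKM and so not tested. In a search of 13607 annotated mouse pseudogene transcripts, chosen after the values were seen, Sec61g matched 9 and Sec61b matched 2 over at least 200 bases at 90% identity or more. Dnajb9, Calr, Spcs2 and Derl1 matched 1 each and the other 35 members matched none. The authors' handling of reads that match several places is not given in the sources used here, so the levels of Sec61b and Sec61g are uncertain, and the part of the copies in these values was not tested.

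Many UPR targets are known to carry an ER stress response element (ERSE) ahead of their start, a pair of boxes read by NF-Y and, under stress, by ATF6 or XBP1. The promoters of 34 of the 41 members were in the RefSeq promoter table (build GRCm38.p6), as windows of 250 bases before the transcript start and 50 after it. The letters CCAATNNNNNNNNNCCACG, searched on both strands, were in the windows of 9 of these 34 genes (26.5%), namely Calr, Canx, Creld2, Derl3, Dnajc3, Hsp90b1, Hspa5, Pdia6 and Syvn1, against 37 of all 27025 genes (0.137%). The shorter ERSE-II, ATTGG and CCACG set 1 base apart, was in those of Dnajb11 and Herpud1, and in 0.0444% of all genes. In Dnajb11 it lies after the transcript start, from base 7 to base 17. Of 35 member windows, 31 had their last bases within the first bases of a transcript of that symbol. The UPR element TGACGTGG was in none of the 34, against 0.714% of all genes, and the C/EBP-ATF core TTGCATCA was in Herpud1 alone, against 1.03%. In Herpud1 the core lies 112 bases before the start, clear of its ERSE-II. These stretches are shown because they belong to the members on which the results below turn, 5′ to 3′ on the strand of the gene with the element in capitals. Hspa5 is at chr2:34772001-34772067 on the plus strand, with the element starting 65 bases before the transcript start. Syvn1 is at chr19:6046508-6046574 (plus, 44 bases before) and Derl3 at chr10:75893218-75893284 (plus, 156 bases before). Hsp90b1 has its upstream copy at chr10:86705614-86705680 (minus, 212 bases before). Herpud1, with the ERSE-II, is at chr8:94386353-94386411 (plus, 52 bases before). In Derl3 the element runs on the opposite strand, so that it reads CGTGG first.
Hspa5: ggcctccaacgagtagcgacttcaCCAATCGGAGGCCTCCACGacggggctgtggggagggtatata
Syvn1: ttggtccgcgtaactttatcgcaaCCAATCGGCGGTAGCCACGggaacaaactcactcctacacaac
Derl3: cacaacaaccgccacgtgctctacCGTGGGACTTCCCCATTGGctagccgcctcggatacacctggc
Hsp90b1: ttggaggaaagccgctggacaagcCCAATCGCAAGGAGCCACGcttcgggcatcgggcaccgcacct
Herpud1: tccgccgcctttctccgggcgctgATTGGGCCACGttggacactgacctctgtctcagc

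The first comparison asked what the loss of finger 1 does to the ER genes. The data show little difference. Over the 12215 transcripts averaging 1 RPKM or more, limma called 0 in dF1 against wt at an adjusted p of 0.05 (0%), and 0 of the 40 members tested. At an unadjusted p under 0.05 there were 0 members higher and 2 lower, Herpud1 and Derl3, where 3.11% and 4.05% of all transcripts were (7.16% in either direction). The median log2 difference of the 40 was -0.08, with 13 above 0 and 27 below, against 0.01 over all transcripts, of which 48.3% were below 0. The standard error of a member's difference was 0.15 at the median.

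Herpud1 was at 131.2 and 122.2 RPKM in dF1 and 170.7 and 159.2 in wt. The dF1 libraries lay below both wt libraries and the replicates of each genotype stood close together. The log2 difference was -0.38 (SE 0.12, limma unadjusted p = 0.0268, adjusted p = 0.64), which is 0.768 of the wt mean. Derl3, a derlin known as an Xbp1 target, was at 1.6 and 1.1 RPKM in dF1 and 6.8 and 2.4 in wt. Again dF1 lay below both wt libraries, but the wt libraries differed from each other by more than wt replicate 2 differed from dF1. The log2 difference was -1.14 (SE 0.41, unadjusted p = 0.0399, adjusted p = 0.681), and without wt replicate 1 it was -0.54. Like Derl3, 9 of 12 tested plasma cell markers had their lower wt value in replicate 2, where 60.3% of all transcripts were, and Sdc1, Txndc5 and Tnfrsf13b were higher there. The widest of these gaps was in the joining chain gene Igj, at 21.2 and 10.5 RPKM in dF1 and 132.1 and 7.3 in wt. The part of plasma cells in the Derl3 values was not tested.

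Counted by overlap alone, 10 of the 40 members had both dF1 libraries below both wt libraries, where 17.9% of all transcripts did, and 0 had both above, where 16.8% did. The 10 include Atf6, a membrane-bound sensor that is cut to release a transcription factor, at 27.1 and 24.9 RPKM in dF1 and 33.3 and 29.2 in wt (log2 difference -0.25, SE 0.13, limma adjusted p = 0.755). They also include 3 of the 4 subunits of the translocon-associated protein (TRAP) complex, which helps signal sequences open the channel. Of these Ssr1 was at 30.2 and 26.4 RPKM in dF1 and 33 and 35 in wt, with a log2 difference of -0.26 (SE 0.12, adjusted p = 0.752). The others in the 10 were Calr, Sec62, Ssr3, Ssr4, Edem2, Derl2, Herpud1 and Derl3. The counts changed with the library left out. Without wt replicate 1, 14 members lay above the remaining wt library and 12 below, and without wt replicate 2, 2 lay above and 27 below. Without dF1 replicate 1, 1 lay above and 23 below, and without dF1 replicate 2, 9 lay above and 11 below. With a library left out, non-overlap is met more easily. Shares over all transcripts are not given for these counts, so they cannot be read beside the 17.9% and 16.8% above.

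Xbp1, the transcription factor made active when Ern1 splices its RNA, was at 185.9 and 174.7 RPKM in dF1 and 218.5 and 147.1 in wt. Both dF1 libraries lay between the wt libraries, and the log2 difference was 0.01 (SE 0.22, limma adjusted p = 0.9996). The values cover the whole transcript and do not tell spliced from unspliced Xbp1. Ern1 (IRE1), the sensor that does the splicing, was at 39.8 and 42.1 RPKM in dF1 and 37.6 and 56.7 in wt, again inside the wt range. Eif2ak3 (PERK), the sensor that slows translation by phosphorylating eIF2, was at 20.5 and 21.7 RPKM in dF1 and 23.4 and 19.8 in wt. Atf4, a transcription factor whose translation rises under PERK, was at 92.1 and 99 RPKM in dF1 and 106.9 and 96.9 in wt, and its target Ddit3 (CHOP) at 19.5 and 17.2 in dF1 and 17.1 and 17.3 in wt. For each of these genes the dF1 and wt ranges overlapped. In the other direction, Spcs2, a subunit of the signal peptidase that trims the entering chain, was at 42.5 and 32.5 RPKM in dF1 and 37.7 and 28.9 in wt, with ranges that also overlapped.

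The spread between replicates was itself ordered. In dF1, replicate 2 was lower than replicate 1 in 36 of the 40 members, with a median log2 difference of -0.20, where 39.2% of all transcripts were lower. In wt, replicate 2 was lower in 34 of 40, with a median of -0.19, where 60.3% of all transcripts were lower. With each library centred on its own median over all transcripts, the counts were 36 and 28, against 49.4% and 46.8% of all transcripts, and the median gaps were -0.25 in dF1 and -0.09 in wt. The median difference between the genotypes was -0.08 either way, so after centring the wt gap was about as large as it. Pdia3, an isomerase that works with Calr and Canx, had both gaps, at 202.3 RPKM in dF4, 229.2 and 172.4 in dF1, and 236.9 and 182.5 in wt. P4hb, the classical protein disulfide isomerase, showed a smaller gap, at 221.7 and 185.6 RPKM in dF1 and 235.8 and 207.8 in wt. Ern1 went the other way in both genotypes, as did Eif2ak3, Atf4 and Syvn1 in dF1 alone and Hyou1, Ddit3, Ssr1 and Edem2 in wt alone, and Dnajb9 was equal in the wt libraries. Markers of other cells also differed between replicates. Of the tested markers, those lower in replicate 2 were 13 of 15 NK cell genes in dF1 and 15 of 15 in wt, 9 of 21 early B lineage genes in dF1 and 19 of 21 in wt, and 9 of 12 plasma cell genes in each. For pDC genes they were 8 of 21 in dF1 and 7 of 21 in wt, for stromal genes 4 of 7 in dF1 and 2 of 7 in wt, and for neutrophil and erythroid genes 1 of 20 and 1 of 14 in each genotype. Their part in the gap was not tested.

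**Figure D2:**
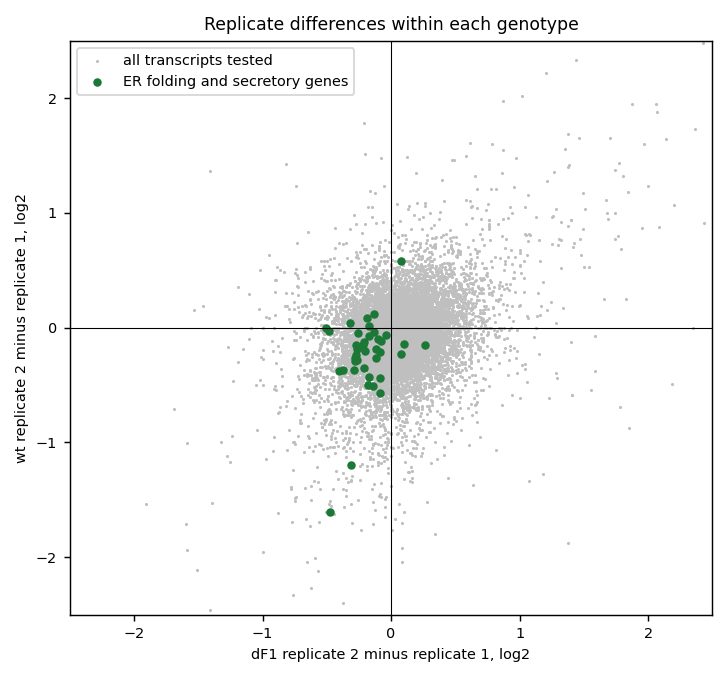
Each point is a transcript, placed by its log2 difference between replicate 2 and replicate 1 in dF1 (horizontal) and in wt (vertical), with all tested transcripts in grey and the ER genes in green. The green points gather at the lower left, where replicate 2 is lower in both genotypes, whereas the grey cloud is spread around the origin, and 14 grey points lie beyond the axes.

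For the loss of finger 4 there is the 1 dF4 library, with no replicate and no test. Some ER genes stood higher in dF4 and more stood lower. To be counted, a transcript had to average 5 RPKM or more, with the libraries of the pair within 0.5 of each other on the log2 scale and dF4 outside both and 1 or more from their mean. Against wt, 34 members could be counted, of which 1 was higher (Syvn1) and 2 were lower (Ssr1 and Spcs2), where 7.75% and 10.4% of all transcripts were. Those lower were 5 under quantile normalization or with each library centred on its median, and 3 without wt replicate 1 and 5 without wt replicate 2. With a wt library left out, the limit on the spread of the pair no longer acts, so more transcripts can be counted. Shares over all transcripts are not given for these alternative settings. Against dF1, 39 members could be counted, of which 2 were higher (Syvn1 and Derl3) and 3 lower (Ern1, Sec61b and Spcs2), where 7.21% and 10.3% of all transcripts were. The median log2 difference of the 40 was -0.26 from wt and -0.26 from dF1. Over all transcripts the median from wt was 0.02, and -0.02 without the 543 tested only through dF4. Under quantile normalization the members' median from wt was -0.44. Of the 40, 29 were below the wt mean, where 48.7% of all transcripts were. The comparisons share the dF4 library.

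Syvn1, which encodes the ubiquitin ligase HRD1 at the centre of ER-associated degradation, was at 60.9 RPKM in dF4 (95% Poisson interval 50 to 73, about 113 reads), 26 and 31.4 in dF1, and 28.5 and 25.5 in wt. The dF4 value was 2.26 times the wt mean, and the interval lay above the other 4 libraries. Its partner Sel1l, the scaffold that brings substrates to HRD1, was at 17.2 RPKM in dF4 (13.3 to 22, about 65 reads), 23.9 and 20.5 in dF1, and 25 and 22.8 in wt. By value the pair stood on opposite sides of the other libraries. The Sel1l interval covered dF1 replicate 2, however, and Sel1l did not meet the size rule. Derl3 was at 33.7 RPKM in dF4 (22.2 to 49, about 27 reads), 1.6 and 1.1 in dF1, and 6.8 and 2.4 in wt. It was 7.33 times the wt mean and 25 times the dF1 mean. The wt libraries were too far apart for it to be counted against wt, and its mean over dF1 and wt was 2.98 RPKM, so it met the level minimum only through dF4. Derl1 and Derl2 were not raised with it, at 14.4 and 9.9 RPKM in dF4 against wt means of 17.2 and 11.8. In dF4 the plasma cell list lay above both wt libraries for 8 of 13 genes and below both for 2, where 44.7% and 42.3% of all transcripts did, and Igj was at 331.2 RPKM, and the part of these cells in the Derl3 value was not tested.

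Atf4 and Ddit3 were also above the other libraries. Atf4 was at 183.4 RPKM in dF4 (158 to 211), which is 1.80 times the wt mean of 101.9 and 1.92 times the dF1 mean of 95.6. Ddit3 was at 32.6 RPKM (19 to 52.1, about 17 reads), 1.90 times the wt mean of 17.2. The Ddit3 interval covered dF1 replicate 1, at 19.5 RPKM. Atf4 and Ddit3 both fell short of the size rule. Sdf2l1, a partner of the BiP co-chaperone Dnajb11, was at 55.9 RPKM in dF4 (39.3 to 76.9), 39.1 and 31.8 in dF1, and 39.1 and 30 in wt, and Edem1, which marks misfolded glycoproteins for disposal, was at 48 in dF4 (41 to 55.8), 38.6 and 34.2 in dF1, and 39.2 and 28.9 in wt. In all, dF4 was the highest library for 7 of the 40 members, where it was for 40.3% of all transcripts. No member was tested only through dF4. Without the 543 transcripts that were, dF4 was the highest for 4391 of 11672.

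Ern1 was at 12.7 RPKM in dF4 (8.48 to 17.9, about 30 reads), 39.8 and 42.1 in dF1, and 37.6 and 56.7 in wt. This is 0.269 of the wt mean, and the interval lay below every other library. Atf6 was also the lowest in dF4, by less, at 20 RPKM (16 to 24.5) against 33.3 and 29.2 in wt, or 0.64 of the wt mean. Eif2ak3 was within the range of the others, at 22.3 RPKM in dF4 against 23.4 and 19.8 in wt. Xbp1 was at 109.9 RPKM in dF4 (90.6 to 131), below both dF1 and both wt libraries, at 0.601 of the wt mean. The log2 difference of Xbp1 from wt was -0.70, and it was -0.42 without wt replicate 1 and -0.98 without wt replicate 2.

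Of the members of protein entry, 3 of the 4 tested of the translocon, 3 of 4 of the TRAP complex and 3 of 3 signal peptidase members were below the wt mean in dF4. Of all transcripts 48.7% were. Of these members Ssr1 and Spcs2 alone met the size rule against wt. Sec62, Sec63, Sec61b and Spcs1 lay within the range of the other libraries. Spcs2 was at 12.5 RPKM in dF4 (7.72 to 19.1, about 21 reads), 42.5 and 32.5 in dF1, and 37.7 and 28.9 in wt, so that dF4 was at 0.375 of the wt mean. Spcs3, another signal peptidase subunit, was at 37.6 RPKM in dF4 (29.8 to 47), 66.6 and 54.6 in dF1, and 75.6 and 62.8 in wt. Spcs1, the other signal peptidase subunit among the members, was at 19.8 RPKM in dF4 (10.3 to 34.8). The subunits Sec11a and Sec11c, taken up in a further list below, were at 39 and 154.4 RPKM in dF4 against wt means of 62.05 and 152.95. Sec11c lay within the range of the other libraries. Ssr1 was at 15.7 RPKM in dF4 (12.5 to 19.3), 30.2 and 26.4 in dF1, and 33 and 35 in wt, below every other library at 0.462 of the wt mean. Of the other TRAP subunits, Ssr2, the most abundant, was at 88.9 RPKM in dF4, 124.6 and 110.6 in dF1, and 119.8 and 113.6 in wt. Ssr3 was likewise the lowest in dF4, at 60.4 RPKM against a wt mean of 98.9, and Ssr4 was the highest there by a little, at 100.6 against 97. The count of Sec61b against dF1 rests on about 1 read in dF4 (interval 0.0763 to 16.8 RPKM), which covers the dF1 values, so no difference was detectable at this depth.

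Among lumenal proteins, Hyou1, a large chaperone that exchanges the nucleotide of BiP, was at 49.5 RPKM in dF4 (41.5 to 58.8), 92.6 and 84.3 in dF1, and 91.3 and 99.5 in wt. Manf, a secreted UPR target that binds BiP, was at 36.4 RPKM in dF4 (26.8 to 48.2), 72 and 59.7 in dF1, and 75.4 and 66.1 in wt. For each the dF4 interval lay below every other library, at 0.519 and 0.514 of the wt mean. BiP itself was at 0.848 of its wt mean, Pdia3 at 0.965 and Pdia4 at 1.13, each within the range of the other libraries, as were the co-chaperone Dnajb11 and Creld2, another UPR target. Dnajc3, a co-chaperone that holds unfolded chains, and the isomerase Pdia6 were the lowest in dF4, at 0.595 and 0.848 of the wt mean. Herpud1 was at 90.6 RPKM in dF4 (74.1 to 110), the lowest of the 5 libraries and 0.549 of the wt mean, and Edem2 at 33.8 (25.1 to 45.4) against a wt mean of 63. In all, dF4 was the lowest library for 22 of the 40 members, where it was for 38.1% of all transcripts, and for 26 with each library centred on its own median, where it was for 43.3%.

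**Figure D3:**
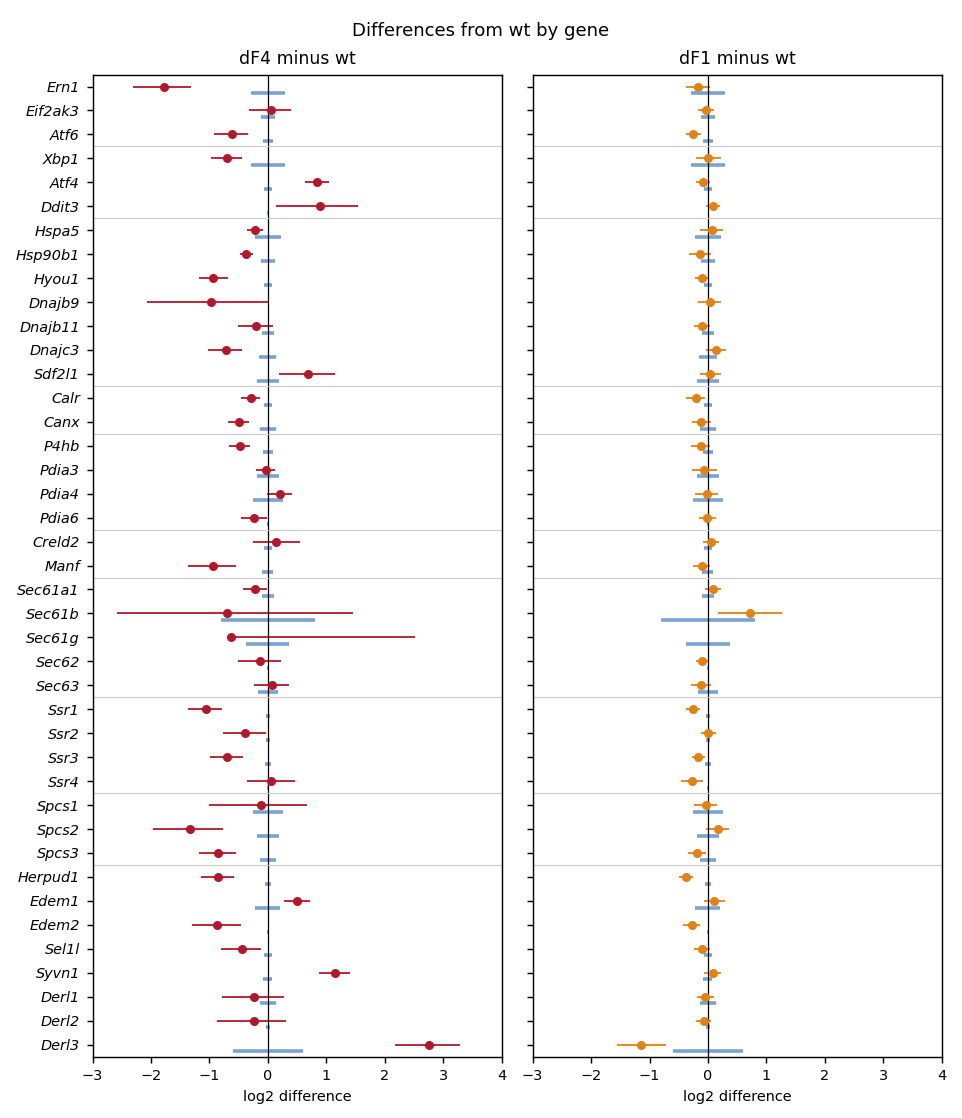
Log2 difference from the wt mean of each gene, for dF4 (left, with 95% Poisson intervals on estimated reads) and dF1 (right, with limma standard errors), and in blue, just below each, the span of the wt libraries around their mean. The dF1 points stay near 0 apart from Derl3 at -1.14 and Sec61b at 0.71, whereas the dF4 points run from -1.78 for Ern1 to 2.75 for Derl3.

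Members with an ERSE or ERSE-II did not stand on 1 side. Over these 11 the median log2 difference of dF4 from wt was -0.24, with a range of -0.86 (Herpud1) to 2.75 (Derl3), and over the 22 tested members with neither in the window it was -0.18, with a range of -1.78 to 0.88. For dF1 the medians were -0.11 and -0.07. In dF4, 8 of the 11 and 14 of the 22 were below the wt mean, where 48.7% of all transcripts were. Syvn1 and Derl3, which were higher in dF4, and Hsp90b1 and Herpud1, which were lower, all carry an element.

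Of 147 further genes of the ER and of early secretion, grouped in 9 lists, 144 were found and 129 tested. In dF1 against wt, limma called 0 of the 129, and 1 had an unadjusted p under 0.05, Fkbp9, an ER prolyl isomerase at 0.8 and 0.8 RPKM in dF1 and 0.1 and 0.2 in wt, which was tested only because dF4 was at 4.4. The median log2 difference of the 129 was 0.00, with 24 above and 22 below both wt libraries, where 16.8% and 17.9% of all transcripts were. In dF4 against wt, 112 could be counted, of which 3 were higher and 14 lower, where 7.75% and 10.4% of all transcripts were. The median of the 129 was -0.17, and -0.24 without the 3 genes tested only through dF4.

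The list of integrated stress response targets, many but not all of them downstream of Atf4, had the highest median difference of dF4 from wt among the 9 lists. It was 0.73 over 13 tested, 10 of which were above the wt mean. For 9 of them dF4 was the highest library, where it was for 40.3% of all transcripts. Asns was tested only through dF4, and without it the median was 0.70, with 8 of 12 highest in dF4. Among all transcripts not tested only through dF4, 4391 of 11672 were highest there. Mthfd2, a mitochondrial folate enzyme, was at 25.8 RPKM in dF4 (17.6 to 36.4), 12.3 and 14.9 in dF1, and 12.3 and 11.8 in wt. It was 2.14 times the wt mean. Sesn2, a stress-induced regulator of mTORC1, went the other way, as did Cebpg and Phgdh. Sesn2 was at 2.5 RPKM in dF4 (0.685 to 6.44, about 4 reads), 7.4 and 8.8 in dF1, and 6.3 and 6.4 in wt, so that its interval covered both wt values. Of genes chosen after their values were seen, Ppp1r15a, which restores translation by dephosphorylating eIF2, was at 38.8 RPKM in dF4 (29.1 to 50.5), 7.7 and 6.1 in dF1, and 11.4 and 6.3 in wt. The asparagine synthetase Asns was at 7.8 RPKM in dF4 (3.56 to 14.8), 0.4 and 0.5 in dF1, and 0.3 and 0.7 in wt. The dF1 median of this list was 0.10, with 4 of 13 above both wt libraries and 0 below, where 16.8% and 17.9% of all transcripts were.

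In each of the other lists the median difference of dF4 from wt was below 0. It ran from -0.38 for the oligosaccharyltransferase to -0.02 for glycan trimming and quality control. Over all 129 further genes tested, dF4 was the lowest library for 68, where it was for 38.1% of all transcripts. It was the highest for 36, where it was for 40.3%. Some single genes past the size rule fell much further. Wfs1, an ER membrane protein of calcium and stress handling, was at 1.4 RPKM in dF4 (0.29 to 4.11, about 3 reads), 24 and 26.1 in dF1, and 20.5 and 24.6 in wt. Pdia5, a disulfide isomerase, was at 1.8 RPKM in dF4 (0.222 to 6.63, about 2 reads), 19.1 and 13.9 in dF1, and 20.3 and 22.5 in wt. The intervals of both lay below every other library. Sec24d, a cargo adaptor of the COPII coat that carries proteins out of the ER, was at 11.2 RPKM in dF4 (7.33 to 16.4), 45.1 and 52.7 in dF1, and 50.6 and 53 in wt. Bhlha15 (Mist1), a transcription factor of secretory cells, was at 2.4 RPKM in dF4 (0.778 to 5.59), 10 and 8.1 in dF1, and 11.5 and 11.7 in wt. Sil1, a nucleotide exchange factor of BiP like Hyou1, was at 11.8 RPKM in dF4 (6.08 to 20.5), 38.3 and 44.3 in dF1, and 39.5 and 48.7 in wt. For each of these 5 genes dF4 was the lowest library. Kdelr2, a receptor that returns escaped ER proteins, was higher in dF4, at 47.8 RPKM (35.8 to 62.6), against 21.8 and 27 in dF1 and 24.3 and 22.5 in wt. Ero1l, which oxidizes the isomerases, was at 10.5 RPKM in dF4 (7.03 to 15.3), 5.6 and 4.8 in dF1, and 4.4 and 3.7 in wt, and met the level minimum only through dF4. In the remaining lists, those counted as lower were Magt1 of the oligosaccharyltransferase, Rnf5 and H47 of degradation, the oxidase Ero1lb, Serp1 and Serpinh1, Tram2 of translocation and the protease Mbtps2. Rnf5 and Tram2 rest on about 2 reads each in dF4, with intervals of 0.366 to 10.9 and 0.289 to 8.62 RPKM. The Rnf5 interval covered both wt libraries and dF1 replicate 1, and the Tram2 interval covered every other library. No difference was detectable for either at this depth.

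**Figure D4:**
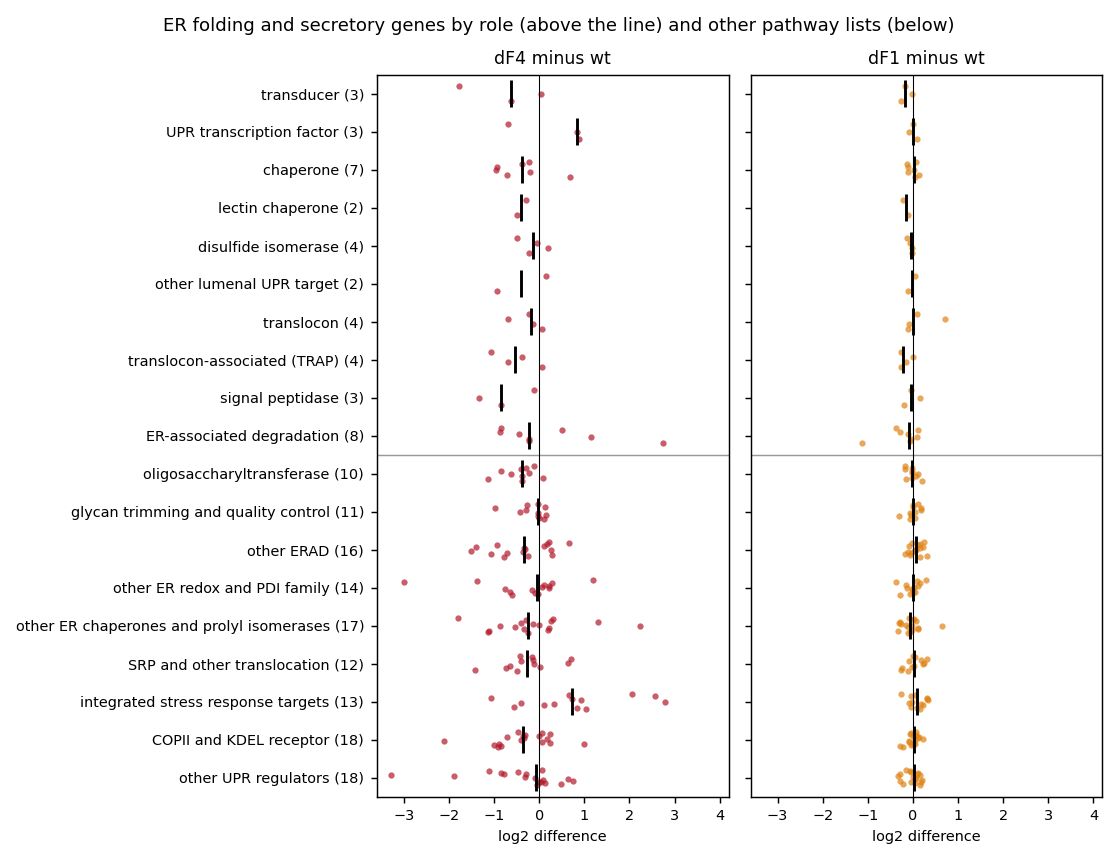
Log2 difference from wt of every tested gene, for dF4 (left) and dF1 (right), with the ER folding and secretory genes by role above the grey line, the 9 further lists below it, the number tested in brackets and the median as a black bar. In dF4 the integrated stress response list has its median at 0.73, and the signal peptidase and sensor rows have theirs at -0.86 and -0.62, and in dF1 the medians run from -0.21 for the TRAP complex to 0.10 for the stress response list.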

How the data were processed

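RPKM per RefSeq transcript were computed by the authors and deposited to 1 decimal, per the file headers. TopHat and bedtools were used with build mm9, per the submitters' processing notes. The total used for scaling, the use of strand and the treatment of reads from copies or overlapping genes are not given in these sources. The deposited table also gives transcript lengths. Its 1 row without a gene name was dropped, and every sample column was used.

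Differences are on log2(RPKM + 1), which understates changes of low genes. dF1 and wt were compared with limma 3.58.1 in R 4.3.3 (eBayes with a trend, two-sided, Benjamini-Hochberg adjustment over 12215 transcripts), after tests on simulated data. The dF4 library was described by size alone. In dF4, values times length were multiples of 1.675 RPM, within 0.1 read, for 80.4% of 1667 low values.

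The genes, lists and tests were chosen with earlier results of these data known. Genes given in full are the sensors and transcription factors, the most abundant of each role, those with an unadjusted p under 0.05 and those past the size rule. From each other list up to 3 with the largest difference past the size rule, or an unadjusted p under 0.05, were named. Cell type markers are mostly given as sums, though the rule would have named the most abundant 2 of each list. Pseudogenes were searched with BLAST+ 2.17.0 in GENCODE M21. Protein sequences were not used here.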

Additional observations from a re-analysis of the deposited data

How the results depend on the processing

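No member was called in dF1 under any alternative run (pseudocounts of 0.1 and 5, no filter, a filter at 5 RPKM, quantile normalization, median centring, robust variances, no trend, the replicate number as a block, and each library left out), and their median stayed between -0.17 and 0.02. Over all transcripts the call count was 245 with no filter, 25 with the filter at 5 RPKM and 33 with robust variances; the cause was not tested. With the replicate block 0 transcripts and 0 members were called and the members' median was -0.08. Same-numbered libraries deviated together (r = 0.305 over 12215 transcripts), but with 2 pairs the numbers are not taken to pair them. Quantile normalization turned Xbp1 to -0.024 and Ssr2 to -0.033.

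With a library left out, uncalled dF1 differences near 0 changed sign, over the ranges -0.28 to 0.29 for Xbp1, -0.46 to 0.12 for Ern1, -0.14 to 0.087 for Eif2ak3, -0.27 to 0.0012 for Hsp90b1, -0.24 to 0.028 for Manf, -0.27 to 0.14 for Pdia3, -0.014 to 0.20 for Sec61a1, -0.091 to 1.52 for Sec61b, -0.022 to 0.35 for Spcs2, -0.076 to 0.094 for Ssr2 and -0.050 to 0.21 for Syvn1. The overlap counts (alternatives chosen after seeing the data) ran from 11 to 27 below and 1 to 14 above wt. They are given without shares over all transcripts, and leaving out a library makes non-overlap easier to meet.

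For dF4 with a pseudocount of 5, transcripts lower than wt were 533 and lower than dF1 544, members lower than wt 1 and higher than dF1 1, and with a pseudocount of 0.1, members higher than dF1 were 1. A filter at 1 RPKM gave 1289 higher and 1306 lower than wt, and 1299 higher and 1331 lower than dF1. Members lower than wt were 5 under quantile normalization (median -0.44) and 5 under median centring, where 1 was higher than dF1. With no limit on the spread of the pair, 2 members were higher than wt. Leaving out a library gave 769 to 992 transcripts higher than wt and 723 to 916 higher than dF1, 2 members higher than wt and 3 to 5 lower, 1 to 2 higher than dF1 and 3 to 5 lower, and a median from wt of -0.40 to -0.20. With a library left out, the limit on the spread does not act on its pair. Shares over all transcripts are not given for the member counts under these settings. Rounding to 1 decimal limits low genes, and in dF4 the read number does.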
